A study of Mus musculus with 36 samples.

Results

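The 7 genes described here encode the receptors through which mouse myeloid cells bind IgG, the adaptors those receptors signal through, and a related innate receptor that uses the same kinase. They are the activating Fc gamma receptors Fcgr1, Fcgr3 and Fcgr4, the inhibitory receptor Fcgr2b, the adaptors Fcer1g and Tyrobp, and Clec7a, which encodes Dectin-1. They were chosen by name, for the IgG receptors among them that could meet the injected antibodies, and with earlier results of these data known. The set is 7 of 18760 named gene rows. All 7 had values in all 36 libraries. Wild-type C57BL/6 mice, matched for age and sex, carried MC38 tumors, grown from a mouse colon carcinoma line. The ICB group received anti-PD1 together with anti-CTLA4 at a high dosage, and the control group received IgG, so every mouse carried a tumor and every mouse received injected immunoglobulin. Kidney, lung, liver, skeletal muscle, heart and tumor were sequenced in bulk, with 3 ICB and 3 IgG libraries for each of the 6 tissues. The sources used here do not give the isotypes and clones of the antibodies, the doses or the day of collection.

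Fc gamma receptors bind the constant region of IgG that coats a target or is held in an immune complex. The activating receptors of mouse have little signalling sequence of their own and pair with the Fcer1g chain, whose immunoreceptor tyrosine-based activation motif (ITAM) is phosphorylated and recruits the kinase Syk. Tyrobp, also called DAP12, carries the same kind of motif for other myeloid and NK cell receptors. Fcgr2b, the inhibitory receptor of the family in mouse, carries an inhibitory motif (ITIM) and is known in liver from the sinusoidal endothelium. Dectin-1 binds fungal beta-glucans and has its own single-tyrosine version of the activation motif (hemITAM).

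The coding stretches of these motifs are shown because they are what separates activating, inhibitory and adaptor members of the group. They were read from the GENCODE transcripts of the mouse GRCm38 (mm10) build, run 5′ to 3′ on the coding strand, and have the tyrosine codons in capitals.

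Fcer1g ITAM, chr1:171229889-171230072, minus strand, coding sequence across 2 exons: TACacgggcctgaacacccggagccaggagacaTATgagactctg

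Tyrobp ITAM, chr7:30415670-30417382, plus strand, coding sequence across 2 exons: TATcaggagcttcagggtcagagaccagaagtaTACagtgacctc

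Fcgr2b ITIM, chr1:170961071-170961088, minus strand, within 1 coding exon: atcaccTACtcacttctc

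Clec7a hemITAM, chr6:129472632-129472655, minus strand, within 1 coding exon: gatgaagatggaTATactcaatta

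The adaptor motifs each hold 2 tyrosine codons, while those of Fcgr2b and Clec7a hold 1. Fcgr2b (chr1:170958617-170976547), Fcgr4 (chr1:171018920-171029761), Fcgr3 (chr1:171051174-171064935) and Fcer1g (chr1:171229572-171234365) lie in a cluster on chromosome 1. Fcgr1 lies at chr3:96282909-96293969, Clec7a at chr6:129461591-129472779 and Tyrobp at chr7:30413760-30417585. Exons of Fcgr2b and Fcgr3 share 166 stretches of 50 bases, which is 2.92% of those of Fcgr2b and 9.58% of those of Fcgr3, so how reads were split between this pair is uncertain. No such stretch was shared by any other pair of the 7 genes. Fcgr2b also overlaps exonic bases of Gm38204 on the opposite strand, and the sources used here do not say whether reads were counted by strand.

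The promoters of Fcgr1, Fcgr3 and Fcgr4 are shown because the shares of these receptors, which carry no test, differed between tissues. They are the 250 bases before the annotated start in RefSeq (GRCm38.p6), 5′ to 3′ on the gene's strand. Capitals mark matches on either strand to GAGGAA (a core bound by Spi1, the PU.1 factor of myeloid cells), its longer form GAGGAAGT (every match of which is also a match to GAGGAA), TTCNNNGAA (bound by STAT factors) and the core bound by interferon regulatory factors (TTTC, 2 bases of any kind, TTTC).

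Fcgr1, chr3:96293970-96294219, minus strand: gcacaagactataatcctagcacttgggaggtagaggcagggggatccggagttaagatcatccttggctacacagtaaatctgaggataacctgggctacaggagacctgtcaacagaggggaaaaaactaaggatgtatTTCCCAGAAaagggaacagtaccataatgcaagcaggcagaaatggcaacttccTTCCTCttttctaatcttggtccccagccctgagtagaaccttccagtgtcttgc

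Fcgr3, chr1:171059404-171059653, minus strand, the first of its 2 listed starts: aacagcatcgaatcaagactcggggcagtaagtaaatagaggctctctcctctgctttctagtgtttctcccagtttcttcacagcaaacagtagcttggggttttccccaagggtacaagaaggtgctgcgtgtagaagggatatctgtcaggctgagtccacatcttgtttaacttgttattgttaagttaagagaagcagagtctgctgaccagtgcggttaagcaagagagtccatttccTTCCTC

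Fcgr4, chr1:171018676-171018925, plus strand: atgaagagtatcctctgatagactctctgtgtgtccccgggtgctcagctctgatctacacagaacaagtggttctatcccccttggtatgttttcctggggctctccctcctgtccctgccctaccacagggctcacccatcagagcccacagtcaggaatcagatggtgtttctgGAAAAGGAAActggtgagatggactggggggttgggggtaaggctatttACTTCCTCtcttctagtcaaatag

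GAGGAA was present in all 3 of these windows and in that of Clec7a, and in 23.3% of 32851 promoters of the same length. TTCNNNGAA was found in Fcgr1 alone among the members with an entry, at positions -109 to -101 from the start, and in 7.02% of all promoters. The interferon regulatory factor core and GAGGAAGT were found in Fcgr4 alone, and in 2.98% and 2.44% of all promoters. The windows of Fcgr2b and Fcer1g held none of the 4. Tyrobp was not matched in the promoter table. A match describes letters in the window and shows no binding.

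The libraries held 19005189 to 25512980 reads as recovered from the deposited values, and the members had 11 to 4054 reads in a library. The marker lists for kidney tubule, alveolar epithelium, hepatocytes, skeletal muscle and heart muscle each summed higher in all 6 libraries of their own tissue than in any other library. The epithelial list (Krt8, Krt18, Krt19, Epcam and Cdh1) was near 0 in the tumor libraries, at 0.557 to 2.21 FPKM (fragments per kilobase, scaled to library size), against up to 843 FPKM in liver, so it did not mark the tumor. No pair of libraries in a group held the same values. Since the labels do not tie libraries to animals, p-values measure only the spread between these samples. In bulk tissue, fewer cells of a type and less RNA per cell cannot be told apart. FPKM is scaled by gene length, so comparisons between genes rest on the length used, which the sources used here do not give. Annotated exons of Fcgr2b cover 5790 bases over 7 transcripts, against 1736 over 4 for Fcgr3 and 1256 over 1 for Fcgr4. Liver libraries summed to 664549 to 924631 FPKM and tumor libraries to 202450 to 216565 FPKM, so orders of tissues were also computed after all libraries were rescaled to 1 common sum (the TPM scale).

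**Figure D1:**
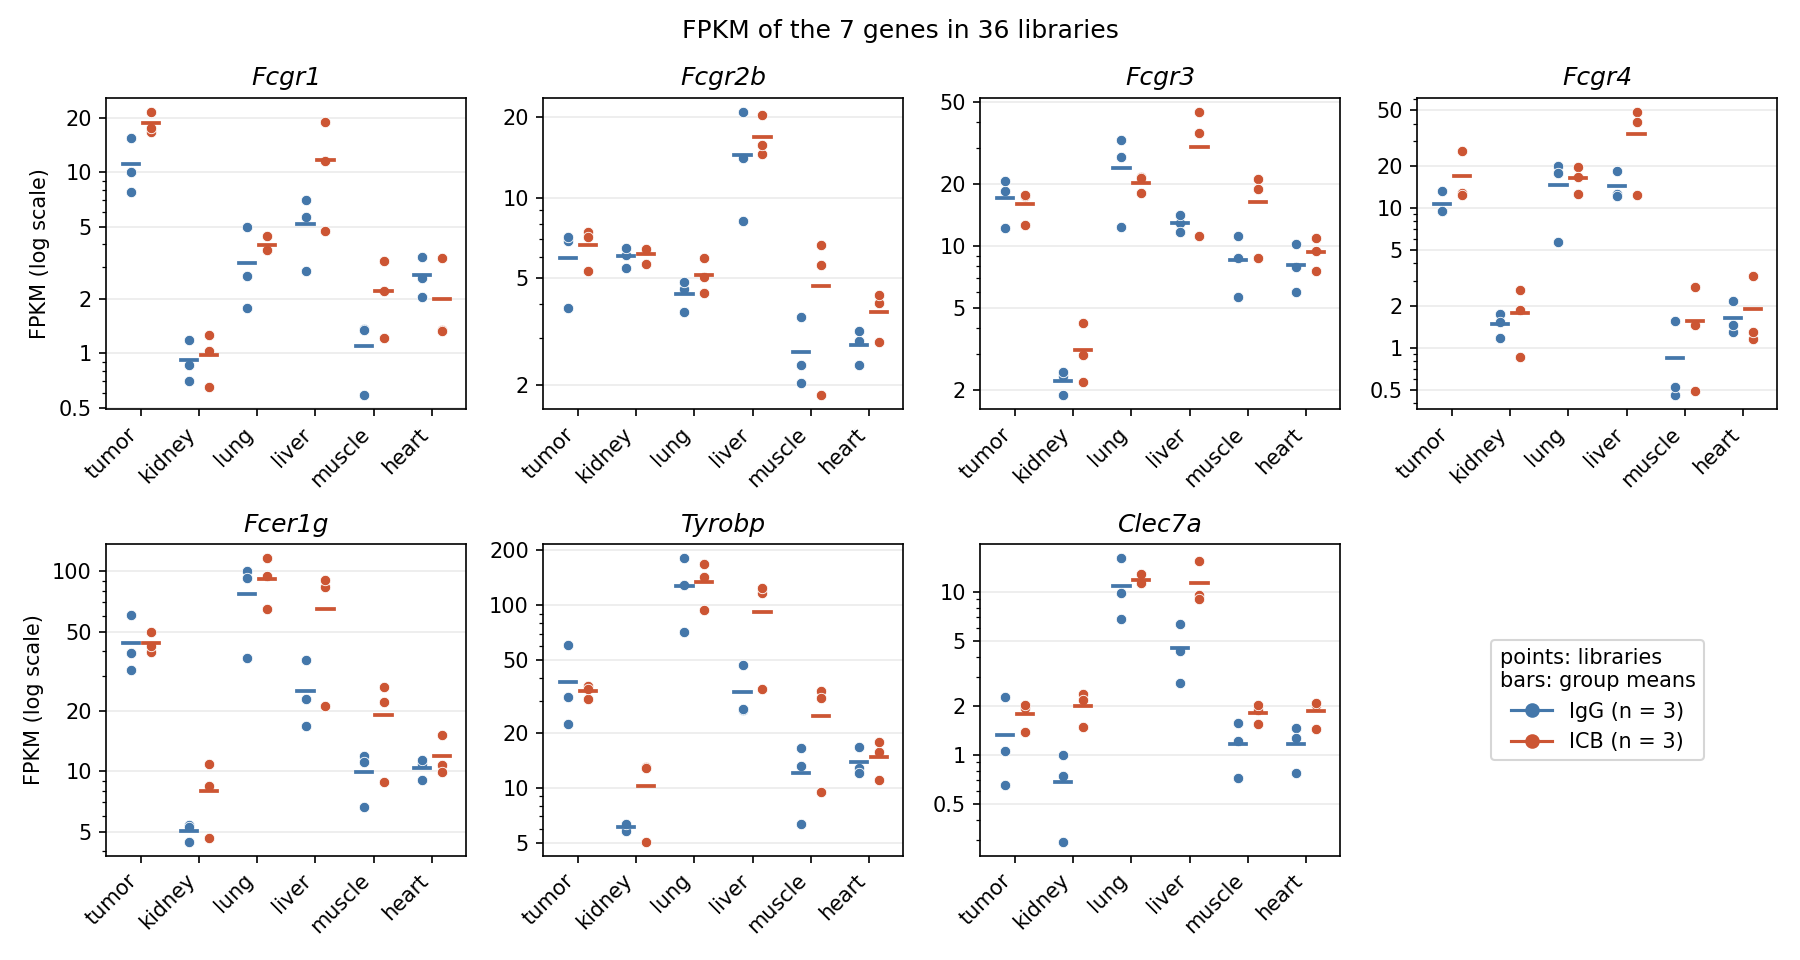
FPKM of each gene (log axis) by tissue, with points for the 3 IgG and 3 ICB libraries and bars for group means. Fcgr1 was highest in tumor, Fcgr2b in liver, and Tyrobp, Fcer1g and Clec7a in lung under IgG, while the liver ICB points spread widely.

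Among IgG libraries the 7 genes followed different tissue orders. Of 105 comparisons of a member between 2 tissues, 69 passed (limma, adjusted p under 0.05 over all genes and pairs), against 62.8% of all genes and pairs, so the members varied between tissues about as often as genes in general. Fcgr1, the high-affinity IgG receptor, was at 10.03, 7.83 and 15.5 FPKM in the tumor libraries, a mean of 11.1 ± 3.96 FPKM (SD, n = 3). This was above liver, at 5.17 ± 2.12 FPKM (log2 difference 0.99 ± 0.35 SE, limma adjusted p = 0.0145). Lung (3.15 FPKM) and heart (2.70 FPKM) followed with no step that passed. Heart was above muscle at 1.10 FPKM (0.82 ± 0.35 SE, limma adjusted p = 0.0408), and kidney was last at 0.914 FPKM. Tumor was also first on the TPM scale, at 53.2, ahead of lung at 11.8, and there lung against heart passed (log2 difference 1.09, limma adjusted p = 0.0127) and kidney against heart did not.

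Fcgr3, the low-affinity activating receptor that is also found on NK cells, was at 27.0, 32.7 and 12.5 FPKM in lung. Tumor (17.1 FPKM), liver (12.9 FPKM), muscle (8.53 FPKM) and heart (8.08 FPKM) followed with no step between neighbours that passed. On the TPM scale liver was apart from lung and tumor, at 17.2 against 89.3 and 82.0 (log2 differences 2.26 and 2.16, limma adjusted p = 7.8e-07 and 1.6e-06). Kidney stood apart at 2.22 ± 0.293 FPKM (SD, n = 3), lower than heart (log2 difference 1.47 ± 0.36 SE, limma adjusted p = 0.000841). Fcgr4, an activating receptor of monocytes, macrophages and neutrophils, formed a high set of lung (14.5 FPKM), liver (14.3 FPKM) and tumor (10.7 FPKM) and a low set of heart (1.63 FPKM), kidney (1.48 FPKM) and muscle (0.846 FPKM). The step between the sets was 2.15 ± 0.42 SE on the log2 scale (tumor against heart, limma adjusted p = 6.2e-05), and it was the 1 step between neighbours that passed for this gene. On the TPM scale liver left the high set, with lung at 53.4, tumor at 51.5 and liver at 18.9. Lung minus liver moved from -0.12 to 1.34 and tumor minus liver from -0.38 to 1.39, both passing on that scale only (limma adjusted p = 0.00764 and 0.00586).

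Fcgr2b, the inhibitory receptor, was at 8.22, 14.1 and 20.8 FPKM in liver, a mean of 14.4 ± 6.32 FPKM (SD, n = 3) that was above kidney at 6.04 FPKM (log2 difference 1.04 ± 0.28 SE, limma adjusted p = 0.00159). Tumor (5.96 FPKM), lung (4.38 FPKM), heart (2.83 FPKM) and muscle (2.66 FPKM) were lower, with no further step between neighbours that passed. The first place of liver rests on the scale, since on the TPM scale tumor was at 28.7, liver at 19.4, lung at 16.8 and kidney at 15.7. There liver against tumor, lung and kidney no longer passed (kidney minus liver -0.19, limma adjusted p = 0.638), while tumor against kidney and lung against heart and muscle did. The sinusoidal endothelium list summed to 95.8 to 110 FPKM in the liver IgG libraries and to 92.2 to 138 FPKM in those of lung. All 6 of its markers reached 1 FPKM in at least 3 of the 6 libraries in liver, and 2 of 6 did in lung. The sums thus rest on unlike markers and are not directly comparable. The part of this endothelium in the level of Fcgr2b was not tested.

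In mean IgG level the adaptors ranked above the other 5 members in every tissue but kidney, where Fcgr2b (6.04 FPKM) was level with Tyrobp (6.08 FPKM) and above Fcer1g (5.03 FPKM). Tyrobp was at 181, 130 and 71.5 FPKM in lung, above tumor at 38.2 ± 19.8 FPKM (SD, n = 3; log2 difference 1.73 ± 0.46 SE, limma adjusted p = 0.00168), and liver (33.6 FPKM) was above heart (13.97 FPKM). Fcer1g was at 100.2, 93.1 and 36.9 FPKM in lung, followed by tumor (43.9 FPKM) and liver (25.3 FPKM), and by heart (10.4 FPKM), muscle (9.90 FPKM) and kidney (5.03 FPKM). For both adaptors the step from liver to heart passed on the deposited scale (Fcer1g 1.14 ± 0.43 SE, Tyrobp 1.17 ± 0.46 SE, limma adjusted p = 0.0231 and 0.0285) and did not on the TPM scale. Tumor against liver did not pass for either adaptor on the deposited scale and did on the TPM scale, where tumor was higher. Clec7a was at 16.1, 6.85 and 9.89 FPKM in lung, above liver at 4.5 FPKM, which was above tumor at 1.32 FPKM (limma adjusted p = 0.000567 and 0.000132). Muscle (1.17 FPKM), heart (1.17 FPKM) and kidney (0.677 FPKM) did not differ from tumor by a step that passed. On the TPM scale tumor against liver no longer passed (6.4 against 6.0), and tumor was above kidney, muscle and heart by 1.34, 1.10 and 1.14 (limma adjusted p = 0.00127, 0.00641 and 0.00489).

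Within a library the scale of the tissue cancels, so the mixture of receptors can be compared directly. In kidney, Fcgr2b made up 56.6% ± 1.6 (SD, n = 3) of the summed FPKM of the 4 Fc gamma receptor genes under IgG, against 30.1% ± 11.0 in liver, 20.3% ± 1.8 in muscle, 18.9% ± 2.9 in heart, 13.1% ± 1.3 in tumor and 10.7% ± 4.4 in lung. The 3 activating receptors summed to 0.717 to 0.820 times Fcgr2b in the kidney IgG libraries, to 6.04 to 7.60 times in tumor and to 5.35 to 11.4 times in lung. Kidney was the tissue in which Fcgr2b exceeded the activating receptors in all IgG libraries. Fcgr3 made up 64.3% ± 4.3 in muscle and 52.7% ± 2.1 in heart, where Fcgr4 was 6.0% ± 2.8 and 10.7% ± 1.9. These shares were chosen after the values were seen, carry no test and rest on the gene lengths used for FPKM.

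**Figure D2:**
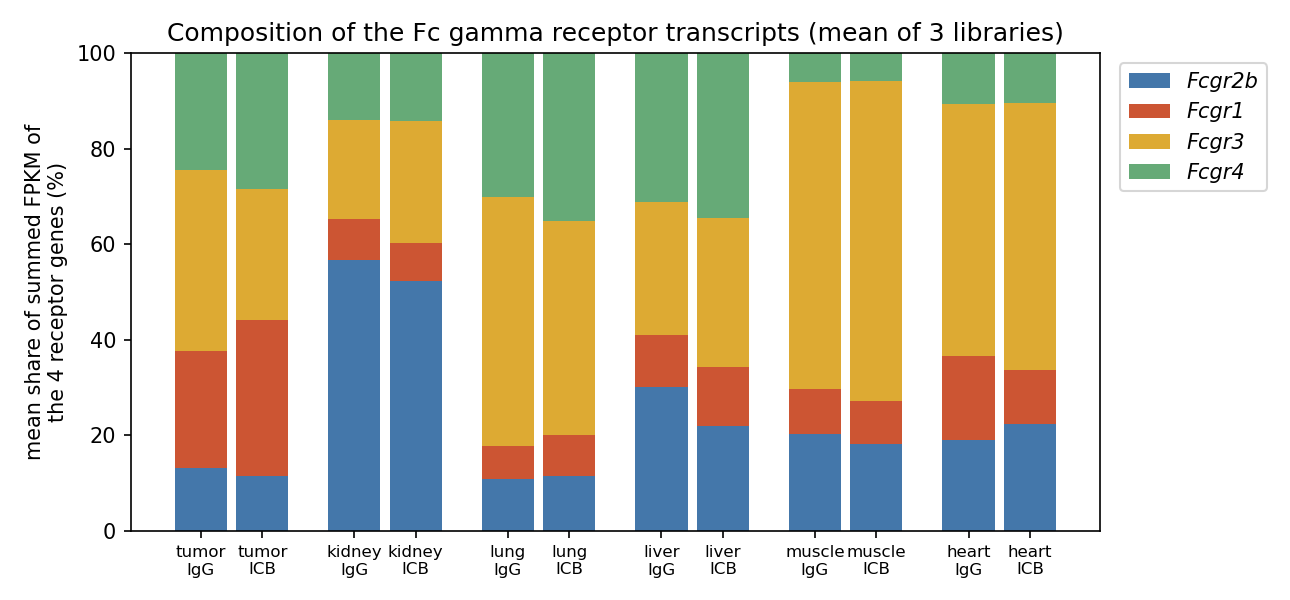
Stacked bars of the mean share (%) of Fcgr2b, Fcgr1, Fcgr3 and Fcgr4 in their summed FPKM, for IgG and ICB in each tissue (3 libraries a bar). Fcgr2b filled 56.6% in kidney IgG libraries and 10.7% in lung, and Fcgr1 filled 24.5% in tumor under IgG and 32.6% under ICB.

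Over all 36 libraries the adaptors varied together, with a Pearson correlation of 0.970 between log2(FPKM + 1) of Fcer1g and Tyrobp. Fcgr3 and Fcgr4 correlated with Fcer1g at 0.898 and 0.877, Fcgr1 at 0.717 and Fcgr2b at 0.348. The lowest of the 21 pairs was Fcgr2b with Fcgr3, at 0.302. These coefficients are descriptions: the 36 points share tissues, and most of the spread lies between tissues. Among 14325 genes, those most like each member over the same libraries included Dhx58 and Zbp1 for Fcgr1 (0.937 and 0.935). They were Akr1c13, Dap and Erg28 for Fcgr2b (highest 0.901), and Clec4a2, Clec4a1 and Cd68 for Fcgr3 (0.929). They were Mpeg1, Apobec1 and H2-D1 for Fcgr4 (0.941), Pld4, Cd53 and Laptm5 for Fcer1g (0.977), Spi1, Pld4 and Laptm5 for Tyrobp (0.980), and Pilrb1, Adgre4 and Cd300a for Clec7a (0.939).

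The comparison of ICB with IgG asks whether checkpoint blockade altered expression in the tumor and in organs outside it. In each tissue alone, no member passed at an adjusted p of 0.05 (limma), and limma-voom on recovered reads also called 0 of 7 in every tissue. All 7 passed the low-value filter in all 6 tissues. The background was as low: limma called 0.0168% of 11901 genes in kidney (Gm2606 and mt-Nd3, named after their values were seen), and 0% of 11476 genes in heart, 11410 in muscle, 11257 in liver, 12747 in lung and 11398 in tumor. At an unadjusted p under 0.05 there were 2 of 7 members in liver, 0 in lung and 1 in each other tissue, and limma-voom gave the same counts except 2 in heart. Of all genes tested, 3.37% reached it in liver, 4.35% in lung, 6.87% in tumor, 3.71% in kidney, 5.33% in muscle and 4.54% in heart. The differences, on the log2(FPKM + 1) scale that understates changes of low genes, are given below by tissue.

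**Figure D3:**
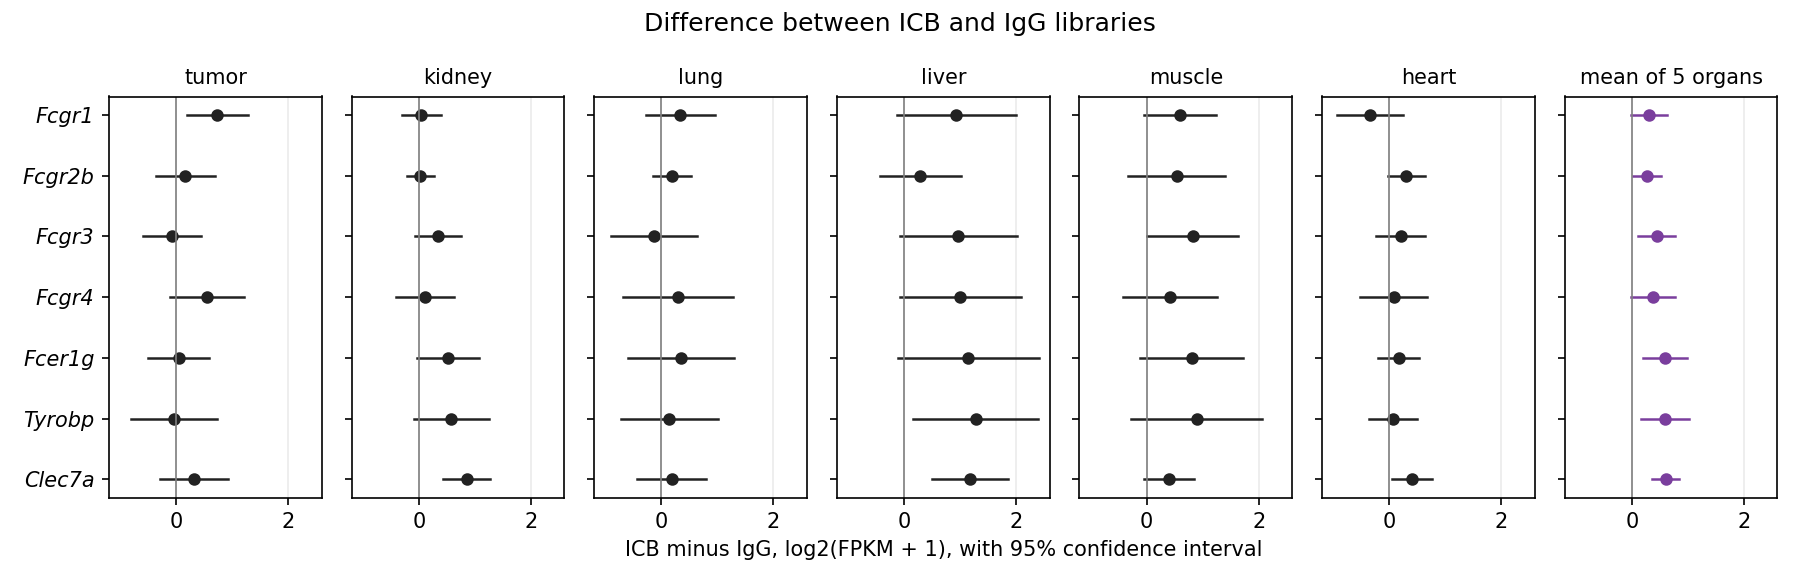
ICB minus IgG difference on the log2(FPKM + 1) scale for each gene in each tissue and for the mean of the 5 organs, as points with 95% confidence intervals. In liver all 7 points lie above 0 with wide intervals, and for the mean of the organs the interval of Clec7a runs from 0.36 to 0.84.

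In tumor the member that separated was Fcgr1, at 10.03, 7.83 and 15.5 FPKM under IgG and 16.8, 21.5 and 17.6 FPKM under ICB. The groups did not overlap, and the difference was 0.74 ± 0.23 SE (limma, unadjusted p = 0.0157, adjusted p = 0.697). It was the 1 member of 7 with all ICB libraries above all IgG libraries, which 5.65% of all genes tested in tumor also showed. Its companion Fcgr3 was at 18.4, 12.2 and 20.7 FPKM under IgG and 12.6, 17.5 and 17.6 FPKM under ICB, a difference of -0.08 ± 0.22 SE. The ratio of Fcgr1 to Fcgr3 was therefore 0.544 to 0.751 under IgG and 0.996 to 1.33 under ICB, with no overlap. Of 42 comparisons of this kind (7 ratios in each of 6 tissues), 4 had no overlap, and the ratio of Fcgr2b to Fcgr3 in tumor was another (0.318 to 0.373 under IgG, 0.403 to 0.425 under ICB). No share for ratios of other genes was computed, so this count has no background. Fcgr4 was at 13.1, 9.46 and 9.45 FPKM under IgG and 12.8, 12.3 and 25.4 FPKM under ICB, where the third ICB library carried most of the difference of 0.55 ± 0.28 SE. Fcer1g and Tyrobp differed by 0.04 ± 0.23 SE and -0.04 ± 0.32 SE, Fcgr2b by 0.16 ± 0.22 SE and Clec7a by 0.31 ± 0.26 SE. NK cells also carry Fcgr3 and both adaptors, and in these libraries the NK cell list (7 markers, none at 0 throughout) summed to 28.3 to 59.6 FPKM under IgG and 12.3 to 26.9 FPKM under ICB. Monocyte markers (Ly6c2, Ccr2, Plac8, Chil3 and Vcan), on the other hand, were 5 of 5 higher under ICB (median difference 1.11, 3 at an unadjusted p under 0.05) and summed to 12.96 to 32.9 FPKM under IgG and 30.1 to 75.6 FPKM under ICB. Macrophage markers (11, none at 0 throughout in any tissue) summed to 256.6 to 743 FPKM and 303.6 to 479.6 FPKM, and the part of these 3 cell types in the members' values was not tested.

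In kidney all 7 members were higher in the mean of the ICB libraries, with a median difference of 0.34 against -0.02 for all genes, and 2 of the 3 ICB libraries carried it. Tyrobp was at 6.09, 5.81 and 6.35 FPKM under IgG and at 12.96, 5.09 and 12.8 FPKM under ICB. Fcer1g was at 4.46, 5.37 and 5.26 FPKM under IgG and at 10.9, 4.66 and 8.46 FPKM under ICB. In both genes the second ICB library lay within or below the IgG range and the other two lay above it. Clec7a was at 0.995, 0.743 and 0.293 FPKM under IgG and at 2.37, 1.49 and 2.16 FPKM under ICB (difference 0.85 ± 0.18 SE, limma adjusted p = 0.992). It was the 1 member with no overlap, against 3.45% of all genes, and it passed the filter through the ICB libraries only, since no IgG library reached 1 FPKM. Without the second ICB library Tyrobp passed (log2 difference 0.97, limma adjusted p = 0.0428). That library was the low one for Tyrobp, so this call is not separate support. The share of all genes passing without that library was not computed. Fcgr2b, the main Fc gamma receptor transcript of this tissue, differed by 0.03 ± 0.10 SE (interval -0.21 to 0.26). Kidney macrophage markers summed to 56.9 to 61.4 FPKM under IgG and to 134.7, 68.1 and 127.6 FPKM in the 3 ICB libraries, and their part in the result was not tested.

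Liver had the largest median difference of the 6 tissues, 1.00 over the 7 members against -0.02 for all genes, and again 2 of the 3 ICB libraries carried it. Tyrobp was at 26.6, 47.0 and 27.1 FPKM under IgG and at 116.6, 34.9 and 124.1 FPKM under ICB (difference 1.28 ± 0.48 SE, limma adjusted p = 0.999). Fcgr3 was at 12.9, 14.1 and 11.8 FPKM under IgG and at 44.7, 11.2 and 35.5 FPKM under ICB, and Fcgr4 at 18.2, 12.6 and 12.1 FPKM and at 48.4, 12.3 and 40.8 FPKM. The second ICB library lay in the IgG range for Tyrobp and Fcgr4 and below it for Fcgr3. Without it Fcgr3 and Fcgr4 passed, at 1.55 and 1.59 (limma adjusted p = 0.0366 and 0.0452). It was the low ICB library for both genes, so these calls are not separate support. The share of all genes passing without that library was not computed. Clec7a was at 2.77, 6.39 and 4.34 FPKM under IgG and at 9.56, 9.02 and 15.5 FPKM under ICB, and was the 1 member with no overlap, against 3.26% of all genes. Its difference was 1.18 ± 0.29 SE (limma adjusted p = 0.999), and it passed when all 36 libraries shared 1 estimate of spread (limma adjusted p = 0.0283). For liver in that shared fit, the share of all genes passing was not computed. Fcgr2b differed least, at 14.4 ± 6.32 and 16.9 ± 3.06 FPKM (SD, n = 3; difference 0.29 ± 0.31 SE). Macrophage markers summed to 353 to 562 FPKM under IgG and to 1186, 456 and 1328 FPKM under ICB, Kupffer cell markers to 224.7 to 422 FPKM and to 370 to 1756 FPKM, and the part of these cells was not tested.

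In skeletal muscle all 7 members were also higher in the ICB mean, with a median difference of 0.59 against 0.00 for all genes, and no member separated, against 6% of all genes. Fcgr3 was at 5.64, 11.2 and 8.76 FPKM under IgG and at 8.78, 21.3 and 18.9 FPKM under ICB (difference 0.82 ± 0.35 SE, limma adjusted p = 0.876). Tyrobp was at 6.32, 13.3 and 16.6 FPKM and at 9.49, 33.9 and 31.0 FPKM, and here the first ICB library was the low one. Macrophage markers summed to 94.6 to 217.6 FPKM under IgG and to 150.5, 403 and 416 FPKM under ICB, and their part was not tested.

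In lung the intervals of all 7 differences included 0, and in heart those of all but Clec7a did. Lung IgG libraries ranged widely, and the third was the lowest of all 6 lung libraries for 6 of the 7 members. Tyrobp was at 181, 130 and 71.5 FPKM under IgG and at 142.8, 167.5 and 94.2 FPKM under ICB (difference 0.14 ± 0.37 SE). That library also had the lowest sum of neutrophil markers, 155.8 FPKM against 1773 and 2527 FPKM in the other IgG libraries and 365.7 to 1182 FPKM under ICB, and the part of neutrophils was not tested. Lung macrophage markers summed to 144.9 to 168.5 FPKM under IgG and 219.5 to 263 FPKM under ICB, with no overlap. Alveolar macrophage markers had 4 of 6 lower and overlapped, at 429 to 573 FPKM under IgG and 270 to 643 FPKM under ICB. Monocyte markers also overlapped, at 332 to 548 FPKM under IgG and 266 to 612 FPKM under ICB. The part of these lists was not tested either. Without the third IgG library, Tyrobp, Fcer1g and Fcgr4 were lower under ICB, at -0.22, -0.11 and -0.23. The TPM scale shifted the median of all genes in lung from -0.01 to 0.20, and relative to those medians Fcgr3 stood at -0.12 and -0.11 and Fcgr1 at 0.34 and 0.43. No member separated in lung, against 4.5% of all genes, or in heart, against 4.79%. In heart Fcgr1 was at 3.43, 2.61 and 2.06 FPKM under IgG and at 1.34, 3.35 and 1.33 FPKM under ICB, the 1 member with a lower ICB mean there (difference -0.35 ± 0.25 SE). Clec7a in heart was at 1.46, 1.27 and 0.770 FPKM and at 2.03, 1.44 and 2.08 FPKM (difference 0.40 ± 0.15 SE, limma unadjusted p = 0.0314, adjusted p = 0.997).

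**Figure D4:**
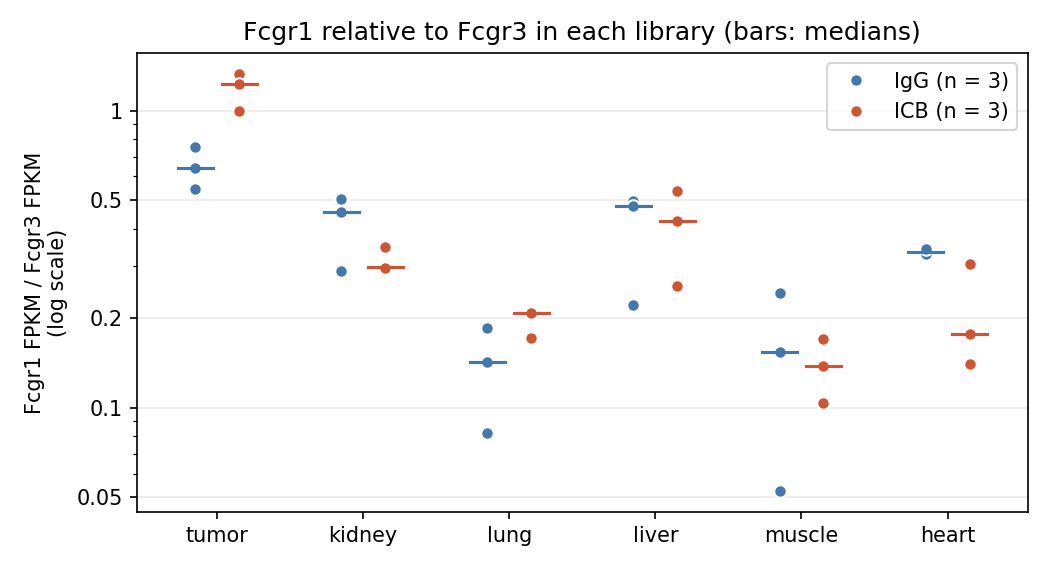
Ratio of Fcgr1 to Fcgr3 FPKM in each library (log axis) by tissue, with bars at the medians of 3 libraries. The tumor ICB libraries lie above all tumor IgG libraries, and the heart ICB libraries, with a median of 0.177, lie below all heart IgG libraries, which run from 0.328 to 0.342.

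The low ICB libraries of kidney, liver and muscle had a label in common. Sample titles join a tissue code to a number, with 5 numbers among the IgG and 5 others among the ICB libraries, and the labels do not say what it marks. The second ICB library of kidney, the second of liver and the first of muscle are titled K344, LV344 and M344. Each of these 3 libraries exceeded all IgG libraries of its tissue for 1 of the 7 members, and that member was Clec7a each time. The other ICB libraries of these tissues did so for 6 and 5 members in kidney, 6 and 6 in liver, and 5 and 7 in muscle. The summed leukocyte markers (Ptprc, Cd53, Laptm5, Cd52 and Coro1a) were 13.7 FPKM in K344 against 25.6 and 25.7 FPKM in the other kidney ICB libraries, 45.6 against 99.5 and 118 FPKM in liver, and 17.8 against 41.0 and 43.1 FPKM in muscle. The heart and tumor libraries of the same number, H344 and T344, exceeded all IgG libraries for 1 member each, against 2 to 5 in the other heart and 2 in the other tumor ICB libraries. This grouping was noticed in the values, and no cause of it was tested. The share of all genes for which a single ICB library exceeded all IgG libraries was not computed. The counts of members therefore have no background.

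**Figure D5:**
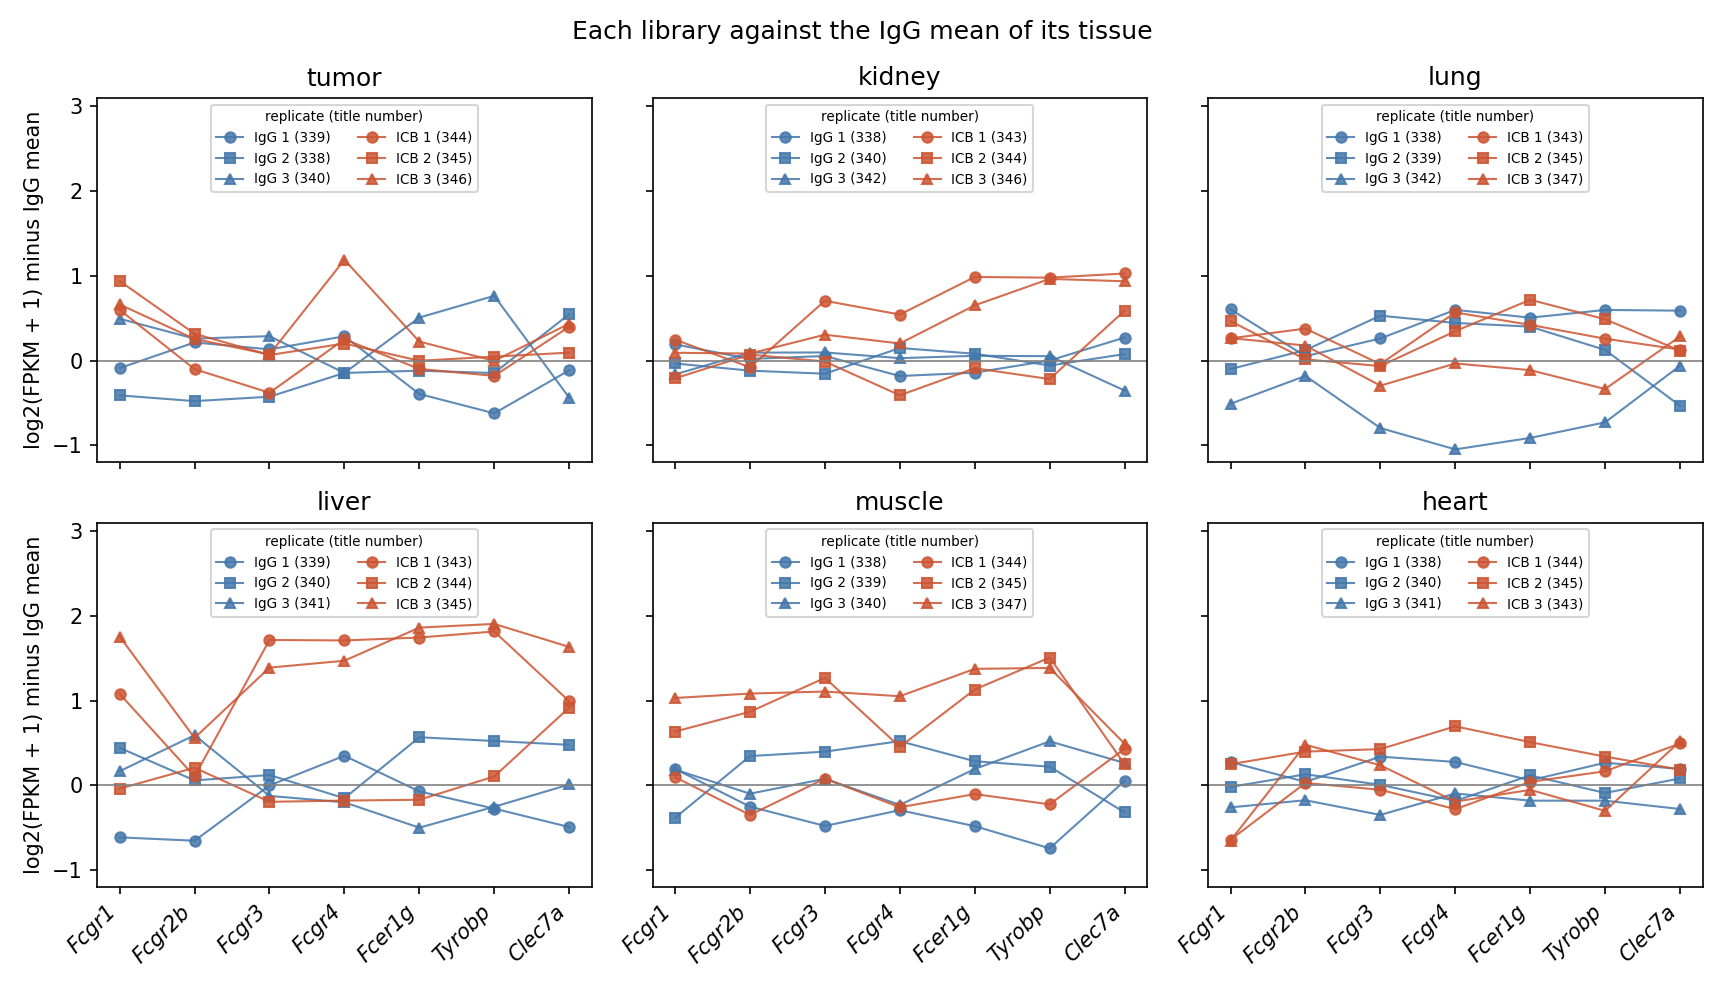
Each library's log2(FPKM + 1) minus the IgG mean of its tissue for the 7 genes, with IgG libraries in blue and ICB libraries in orange and the title number in parentheses. In kidney, liver and muscle the libraries K344, LV344 and M344 run among or near the IgG lines except at Clec7a, while the other ICB lines run above them for most genes.

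Averaged over the 5 organs in a fit of all 36 libraries, Clec7a was the 1 member that passed. Its mean ICB minus IgG difference was 0.60 ± 0.12 SE (interval 0.36 to 0.84; limma adjusted p = 0.0189), the 7th smallest p-value of 8924 genes, and its ICB mean was higher in each of the 5 organs. Of all genes, 0.247% passed. Clec7a entered this test in kidney through the ICB libraries only, and with no filter its adjusted p was 0.0197 (limma). Fcer1g (0.60 ± 0.19 SE) and Tyrobp (0.59 ± 0.21 SE) had differences of like size on the log2(FPKM + 1) scale, with larger errors (limma adjusted p = 0.225 and 0.278). That scale understates changes of low genes, and with a pseudocount of 0.1 Clec7a was at 0.88 (limma adjusted p = 0.0193). On the log2(FPKM + 1) scale Fcgr3 was at 0.44 ± 0.16, Fcgr4 at 0.38 ± 0.19, Fcgr1 at 0.31 ± 0.16 and Fcgr2b at 0.27 ± 0.12 (SE; limma adjusted p = 0.317 to 0.591). All 7 differences were positive, against 40.7% of all genes, and their median was 0.44 against -0.02. The members were chosen with earlier results of these data known, which limits what this count and the rank of Clec7a can show.

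The Clec7a call was close to the threshold. It was lost with the title number as a replicate block (difference 0.62, limma adjusted p = 0.0752). It was also lost when the third muscle ICB library was left out (limma adjusted p = 0.0503), and, in a setting chosen after seeing the data, for 5 of the 10 title numbers when all libraries of that number were left out (those of M339, LV341, K343, LV345 and M347; limma adjusted p = 0.0814, 0.0552, 0.130, 0.123 and 0.0724). Its difference was 0.47 to 0.71 in these settings and with any other number left out. Without the libraries that share the number of K344, Fcgr3, Fcer1g, Tyrobp and Clec7a all passed, at 0.69, 0.89, 0.89 and 0.64 (limma adjusted p = 0.00332, 0.00204, 0.00425 and 0.0121). Without the second liver ICB library alone, Fcgr3 and Fcer1g passed beside Clec7a. Both settings leave out libraries already seen to be low for most members, so the calls gained are not separate support. The share of all genes passing in these settings is not given here.

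Markers of macrophages moved with these values: 8 of 8 tested were higher in the mean of the organs and Csf1r and Mpeg1 passed (0.65 ± 0.14 and 0.68 ± 0.13 SE, limma adjusted p = 0.0312 and 0.0189). So did general leukocyte markers, with 4 of 4 tested higher and Laptm5 passing at 0.63 ± 0.13 SE (limma adjusted p = 0.0189). Other myeloid lists had few tested: 1 of 2 monocyte, 0 of 2 neutrophil and 0 of 1 alveolar macrophage markers were higher. The erythroid markers had 5 of 5 lower, with Hba-a2 passing at -1.69 ± 0.36 SE (limma adjusted p = 0.028). The part of any of these lists in the members' values was not tested. A test of whether the ICB difference varied between the 6 tissues passed for 0 of 7 members and 0.0868% of 16123 genes. No member reached an unadjusted p under 0.05 there, against 6.2% of all genes, and the smallest were 0.0904 for Clec7a and 0.135 for Fcgr1 (limma F-test).

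The other genes of the pathway were read from lists. In single tissues no gene of the lists passed (limma), and limma-voom called 1 gene of all in kidney and 0 in the other tissues. At an unadjusted p under 0.05, the Syk pathway list, which holds the kinase and its partners, had 7 of 18 tested genes in lung, 5 of 15 in liver, 2 of 18 in tumor, 2 of 14 in heart and none in kidney or muscle. These counts stand against the shares of all genes given above, 4.35% in lung, 3.37% in liver, 6.87% in tumor and 4.54% in heart. All 18 were higher under ICB in lung, against 47.6% of all genes, and the list had 14 of 15 higher in liver, 10 of 11 in kidney, 11 of 14 in heart, 9 of 13 in muscle and 10 of 18 in tumor. Of all genes tested, 45.6% were higher in liver, 44.9% in kidney, 51.3% in heart, 50.6% in muscle and 48.2% in tumor. The lung genes were led by Plcg2, a phospholipase downstream of Syk, at 6.95 ± 1.72 and 13.6 ± 2.30 FPKM (SD, n = 3). In the same lung libraries the alveolar epithelium markers (5 of 5 lower) summed to 33730 to 54688 FPKM under IgG and to 19909 to 30929 FPKM under ICB, with no overlap. The erythroid markers were 5 of 5 lower in lung, with a median difference of -2.45 and all 5 at an unadjusted p under 0.05. Among leukocyte lists in lung, the general one had 5 of 5 higher (median difference 0.62), B cell 5 of 5, T cell 7 of 7 and NK cell 4 of 5. Neutrophil and alveolar macrophage markers had 2 of 7 and 2 of 6 higher. The part of any of these lists was not tested. Phagocyte effectors, which include the oxidase subunit Cybb and the integrin chain Itgb2, had 13 of 13 higher in lung, 12 of 12 in liver and 10 of 10 in muscle, with 4, 8 and 4 at an unadjusted p under 0.05. They had 7 of 8 higher in kidney (6 at that p), 9 of 13 in tumor (4) and 6 of 9 in heart (none). In the mean of the organs 7 of 7 tested were higher and 3 passed, against 40.7% of all genes higher and 0.247% passing. The 3 were Itgb2 at 0.84 ± 0.14, Cybb at 0.72 ± 0.14 and Nckap1l, a regulator of the actin cytoskeleton in blood cells, at 0.62 ± 0.11 (SE, limma adjusted p = 0.0106, 0.0189 and 0.0106). This list was chosen with earlier results of these data known, so its calls are not separate support.

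Other receptors that pair with Fcer1g or Tyrobp were mostly below the filter: none of 18 was tested in kidney, 1 in muscle, 2 in heart, 5 in liver, 6 in tumor and 14 in lung. In liver 5 of 5 were higher, and Clec4n (Dectin-2), another Fcer1g partner, was at 3.43 ± 1.47 FPKM under IgG and 10.9 ± 5.65 FPKM under ICB (SD, n = 3; limma adjusted p = 0.999). This list had 12 of 14 higher in lung, 4 of 6 in tumor, 2 of 2 in heart and 1 of 1 in muscle. In tumor Clec4n was lower under ICB, at 4.81 ± 1.25 and 3.41 ± 1.10 FPKM. Other inhibitory receptors with ITIMs had 10 of 10 tested genes higher in liver, with Sirpa, which binds CD47, at 7.44 ± 2.48 and 14.8 ± 4.29 FPKM. In the other tissues 9 of 12 were higher in tumor and in lung, 3 of 3 in kidney and in muscle, and 2 of 4 in heart. In liver, 10 of 10 tested C-type lectins and pattern receptors were higher, and the scavenger receptor Marco was at 18.4 ± 9.69 FPKM under IgG and 299.6 ± 269.8 FPKM under ICB. This list had 10 of 14 higher in lung, 8 of 11 in muscle, 7 of 10 in heart, 6 of 10 in tumor and 3 of 4 in kidney. Of other Fc binding proteins, 2 of 3 tested in liver were higher, and Fcgrt, the neonatal Fc receptor that recycles IgG, was at 144.9 ± 8.78 FPKM under IgG and 152.9 ± 26.5 FPKM under ICB (difference 0.06 ± 0.19 SE). That list had 7 of 9 higher in lung, 3 of 4 in tumor, 3 of 3 in muscle, 2 of 4 in kidney and 1 of 3 in heart. The shares of all genes higher, given above and running from 44.9% in kidney to 51.3% in heart, are the background of these counts. No difference between the lists was tested.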

How the data were processed

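Total RNA of flash-frozen tissue was sequenced with the TruSeq kit, per the labels' protocols. The values analysed are FPKM per gene from the table the authors deposited. The submitters' processing notes name HISAT2 2.1.0, edgeR and the mm10 build. The sources used here do not name the counter or its strand setting. Of 18781 rows, 15 without a name (0.0834% to 0.374% of reads) and 3 symbols on 2 rows each were left out. FPKM values were whole multiples of the value of 1 read for all 18781 rows (within 0.001), and these reads were used for limma-voom. Groups came from the labels.

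Tests used limma 3.58.1 in R 4.3.3, with a trend in the prior variance, on log2(FPKM + 1), two-sided, for genes of at least 1 FPKM in 3 of a tissue's 6 libraries, with Benjamini-Hochberg adjustment over all genes. The mean of the organs needed that filter in each of the 5 organs. Tissue pairs, the mean of the organs and the test between tissues came from 1 fit of 12 group means. The fits were tested on simulated data. All 7 genes are named in every tissue; for each, the 3 genes most correlated with it (1 of them is not reported here), and in each list up to 2 genes each way with the largest difference. The members and lists were chosen with earlier results of these data known. Ratios, shares, sequence motifs and the settings by title number were added after the values were seen. Alternatives were a pseudocount of 0.1, no filter, 2 other scalings, no trend, array weights, limma-voom, a shared fit, a block by title number and leaving out each library.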

Additional observations from a re-analysis of the deposited data

Results flagged for a closer look

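The ratio of Fcgr1 to Fcgr3 moved in opposite directions in tumor and heart, with no overlap between groups in either. In tumor the ICB median was 1.22 against an IgG median of 0.642, and all 3 ICB libraries were above all 3 IgG libraries. In heart the ICB median was 0.177 against 0.333, and all 3 ICB libraries were below all 3 IgG libraries. The difference between the tissues was not tested. Of the 42 comparisons (7 ratios in 6 tissues, chosen after the values were seen), 4 had no overlap. No share for ratios of other genes was computed. The count therefore has no background, and no conclusion is drawn from the opposite directions. The other two were higher under ICB: Fcgr2b to Fcgr3 in tumor (median 0.345 under IgG, 0.423 under ICB) and Fcer1g to the summed activating receptors in kidney (1.13 and 1.35).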

How the results depend on the processing

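With 3 libraries a group, the results turn on single libraries. The number of members called was 0 in tumor, lung, muscle and heart under every alternative. It was 0 to 1 in kidney and 0 to 2 in liver when 1 library was left out, and 1 in liver in 1 fit of all 36 libraries. For the mean of the organs it was 1, and 2 on the TPM scale and with array weights (Fcer1g and Clec7a), 0 to 3 when 1 library was left out, 0 without the title number of M339, LV341, K343, LV345 or M347, and 4 without that of K344. Tissue pairs called were 64 to 73 of 105 when 1 library was left out and 57 to 77 without 1 title number. Apart from limma-voom, the share of all genes passing under these alternatives was not computed, so these counts have no background.

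The title number as a replicate block (estimated correlation 0.106) gave 0 members called for the mean of the organs (Clec7a 0.62, limma adjusted p = 0.0752) and changed no other count by over 1.5 times. Libraries sharing a number had residual correlations of -0.13 to 0.44 over 56 pairs (median 0.12, 32 over 0.1), against a median of -0.03 with 32 of 214 over 0.1 for other pairs. Same-numbered libraries thus deviated together more often, but not in every pair, and the labels do not say what the number marks, so it was not taken to pair them.

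Of 1701 single-gene values under alternatives, 31 changed sign. Array weights gave Fcgr3 0.20, Tyrobp 0.074 and Clec7a -0.10 in tumor, Fcgr2b -0.017 in kidney and Tyrobp -0.080 in lung, and the TPM scale gave Fcgr3 0.085 in lung. Leaving out 1 library gave, in tumor, Fcgr2b -0.079 to 0.29, Fcgr3 -0.29 to 0.071, Fcer1g -0.15 to 0.30 and Tyrobp -0.35 to 0.34. In kidney it gave Fcgr1 -0.057 to 0.17, Fcgr2b -0.032 to 0.079 and Fcgr4 -0.10 to 0.37. In lung it gave Fcgr3 -0.53 to 0.13, Fcgr4 -0.23 to 0.60, Fcer1g -0.11 to 0.60, Tyrobp -0.22 to 0.44 and Clec7a -0.087 to 0.47. It gave Fcgr2b -0.034 to 0.59 in liver, and Fcgr4 -0.24 to 0.25, Fcer1g -0.0047 to 0.28 and Tyrobp -0.066 to 0.25 in heart. The cause was not tested. The lowest read numbers in a library were 11 for Fcgr4 in muscle and 17 for Clec7a in kidney, which limits both.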
